A study of Mus musculus with 20 samples.

Results

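Open chromatin on CpG islands was followed in cultured mouse ER-Hoxa9-Lys-GFP cells while they left the estradiol (E2) that had been kept in their medium. The members were the ATAC-seq peaks whose deposited detailed annotation names a CpG island, and they were split by the deposited distance of the peak centre to the nearest transcription start site (TSS), at most 1000 bp or farther. Of the 504887 peaks in 10 lists, 12370 were members, 6888 of them within 1000 bp of a TSS (island promoter peaks) and 5482 farther away (island distal peaks). At 0 h, with E2, 1323 of 55261 peaks were members, 741 near and 582 distal.

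ATAC-seq, in which the transposase Tn5 inserts adapters into accessible DNA, was done on 20 samples from C57BL/6-derived cells in RPMI medium with serum and stem cell factor. There were 2 replicates in E2 (0 h) and 2 replicates at each of 9 times, from 4 to 120 h, after cells had been washed in PBS and moved to medium free of E2. All groups share the same engineered line. In such lines the homeobox factor Hoxa9 is fused to an estrogen receptor domain, so that E2 holds the fusion active, and a lysozyme-driven GFP reports myeloid maturation. The sources used here do not say whether the line is 1 clone. Nuclei of a preparation were divided between transposition reactions, and replicates of a time may therefore be technical. There was 1 peak list per time point and none per replicate. No spread between replicates could be computed, no p-value is given, and the depth is unknown. The 95% intervals (Wilson for shares, Newcombe for differences) cover counting error only.

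CpG islands are stretches of DNA with many C-G dinucleotides that mostly escape methylation. They cover the promoters of housekeeping genes and of many developmental genes, and they are bound by CXXC-domain proteins such as Kdm2b and Cxxc1, which bring Polycomb or Trithorax complexes. Many islands away from annotated promoters start unannotated or alternative transcripts. In myeloid cells most regulated enhancers lie outside islands.

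The deposited label does not cover every island. It was given only to peaks centred in an intron or between genes: 0 island peaks in the 10 lists had another annotation. All 6888 island promoter peaks were intronic, with centres from 101 to 1000 bp downstream of the TSS, and 719 of the 741 at 0 h lay in intron 1. The 7281 peaks of the 0 h list annotated as promoter-TSS carry no island label, whatever their sequence. The RefSeq sequences around gene starts (GRCm38.p6, 250 bases before and 50 after the start) show this. Of the windows under promoter-TSS peaks at 0 h, 74.8% had island-like composition, meaning at least 50% G+C and an observed over expected CpG ratio of at least 0.6, against 33.5% of all 32851 windows. Island promoter peaks are therefore those whose centre sits inside the gene, not all peaks on island promoters.

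The sequences that stand under the main patterns are shown as the 250 bases upstream of the RefSeq start (mm10 coordinates, counted from 1; 5′ to 3′ on the strand of the gene), with each CG dinucleotide in capitals. They are a promoter listed at all 10 times (Gtf2i), promoters no longer listed after E2 withdrawal (Scmh1 and Galnt6), one that appeared (Atxn7), one missing from a middle list (Anp32b), and RefSeq starts inside a constant and a lost distal region (Gm51701 and Gm41453).
Gtf2i, chr5:134314761-134315010, minus strand: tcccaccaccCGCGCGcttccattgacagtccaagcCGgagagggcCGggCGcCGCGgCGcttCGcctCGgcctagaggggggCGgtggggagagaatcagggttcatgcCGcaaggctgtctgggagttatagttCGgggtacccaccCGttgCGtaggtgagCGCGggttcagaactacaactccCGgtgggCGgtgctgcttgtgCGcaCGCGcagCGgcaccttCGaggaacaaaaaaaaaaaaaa
Scmh1, chr4:120405098-120405347, plus strand: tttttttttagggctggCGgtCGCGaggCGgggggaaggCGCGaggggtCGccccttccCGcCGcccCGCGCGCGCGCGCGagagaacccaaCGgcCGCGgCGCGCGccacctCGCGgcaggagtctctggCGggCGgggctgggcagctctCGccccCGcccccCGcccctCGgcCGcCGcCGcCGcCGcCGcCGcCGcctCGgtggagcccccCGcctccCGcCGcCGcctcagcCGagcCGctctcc
Galnt6, chr15:100729377-100729626, minus strand: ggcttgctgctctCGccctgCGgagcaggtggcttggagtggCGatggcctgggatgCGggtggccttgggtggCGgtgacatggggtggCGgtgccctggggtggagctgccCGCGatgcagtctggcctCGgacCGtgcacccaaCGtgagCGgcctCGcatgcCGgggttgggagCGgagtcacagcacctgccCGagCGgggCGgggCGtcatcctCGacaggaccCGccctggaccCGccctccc
Atxn7, chr14:14012241-14012490, plus strand: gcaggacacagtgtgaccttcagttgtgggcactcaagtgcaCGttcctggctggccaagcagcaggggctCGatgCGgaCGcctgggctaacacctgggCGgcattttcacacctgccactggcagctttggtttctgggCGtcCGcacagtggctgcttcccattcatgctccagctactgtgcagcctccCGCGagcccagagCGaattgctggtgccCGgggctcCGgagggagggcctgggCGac
Anp32b, chr4:46450676-46450925, plus strand: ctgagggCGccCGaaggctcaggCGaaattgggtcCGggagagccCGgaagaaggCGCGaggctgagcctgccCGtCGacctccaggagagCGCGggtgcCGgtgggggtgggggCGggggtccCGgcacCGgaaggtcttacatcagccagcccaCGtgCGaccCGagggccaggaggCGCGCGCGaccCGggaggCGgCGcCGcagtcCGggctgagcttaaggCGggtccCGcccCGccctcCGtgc
Gm51701 (nearest deposited gene Ccr1), chr9:123924898-123925147, plus strand: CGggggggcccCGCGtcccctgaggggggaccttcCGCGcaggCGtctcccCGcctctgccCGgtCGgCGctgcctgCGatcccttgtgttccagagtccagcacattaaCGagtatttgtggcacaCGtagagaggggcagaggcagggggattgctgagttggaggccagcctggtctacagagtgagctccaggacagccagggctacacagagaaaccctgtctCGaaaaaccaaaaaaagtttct
Gm41453 (nearest deposited gene Cd80), chr16:38482884-38483133, minus strand: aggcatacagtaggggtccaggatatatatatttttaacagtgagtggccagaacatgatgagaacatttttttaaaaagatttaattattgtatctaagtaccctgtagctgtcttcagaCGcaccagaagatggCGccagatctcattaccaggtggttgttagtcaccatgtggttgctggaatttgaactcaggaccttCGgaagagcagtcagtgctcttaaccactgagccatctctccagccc
The 7 windows differ widely in CpG content. Scmh1 holds 45 CG dinucleotides at an observed over expected ratio of 1.10, Anp32b 31 at 0.89, Gtf2i 25 at 1.01 and Galnt6 22 at 0.68. Gm51701 holds 14 at 0.59 and Atxn7 13 at 0.50. The Gm41453 window, 250 bases of the region nearest Cd80, holds 3 at 0.25.

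The number of island promoter peaks stayed between 696 and 794 up to 72 h and then fell, as did that of distal ones. The lists from 0 to 120 h held 741, 777, 790, 751, 794, 743, 722, 696, 475 and 399 island promoter peaks. Island distal peaks numbered 582, 550, 570, 563, 612, 622, 588, 559, 443 and 393 in the same order. The last list thus held 0.54 times the island promoter peaks of 0 h and 0.68 times the island distal peaks. The order of the 2 classes rests on the label of single peaks: when any island peak made its whole region a member, the ratios were 0.92 and 0.66. All peaks went from 55261 to 23620 over the same times, and peaks off islands over 1000 bp from a TSS from 44072 to 14259. The island share of a list was 2.39% at 0 h (95% interval 2.27 to 2.52), lowest at 48 h with 2.20% (2.08 to 2.32), and 3.35% at 120 h (3.13 to 3.59). In these bulk samples a region open in fewer cells and one less open in every cell cannot be told apart.

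**Figure D1:**
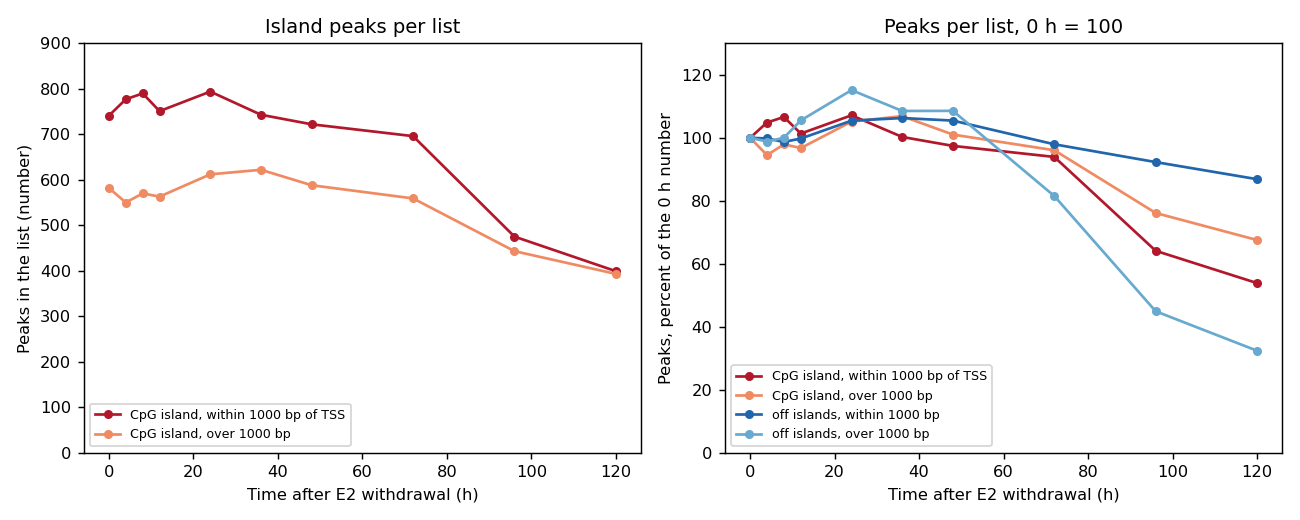
Number of island peaks in each list (left) and peaks of 4 classes as a percent of their 0 h number (right), against hours after E2 withdrawal; each point is 1 list. Both island classes stay between 550 and 794 peaks up to 72 h and end at 399 and 393, while distal peaks off islands fall furthest.

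Most island promoter peaks of 0 h still had an overlapping peak at 120 h, but under another label. Of the 741 peaks at 0 h, 606 were overlapped by a peak at 120 h, which is 81.8% (78.8 to 84.4), beside 32.6% of all 0 h peaks. Only 237 of the 741 were best overlapped by a peak that still had an island label. Another 221 were best overlapped by a peak annotated as promoter-TSS, 69 by one in a 5′ UTR, 60 by one in an exon, and 135 by none. At 72 h, 441 of the 741 were best overlapped by an island-labelled peak and 93 by a promoter-TSS peak. When the 10 lists were merged into union regions, 789 of the 945 island promoter regions held a peak at 0 h and 740 held one at 120 h. Island distal regions went from 539 to 366 of 659, and 323 of the 361 distal peaks overlapped at 120 h met an island-labelled peak.

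The relabelling came with a withdrawal of the downstream edge toward the TSS. Each 0 h island promoter region was measured from its upstream to its downstream edge on the strand of the gene, over the 740 peaks whose gene start was resolved. In the 394 regions present in all 10 lists the median downstream edge lay 714.5 bp after the TSS at 0 h, and at 667.5, 678.5, 604 and 593 bp in the lists of 48, 72, 96 and 120 h. The median upstream edge moved from -267.5 to -310 bp over the same course. Region by region, the downstream edge had a median shift of 0 bp in the lists of 4, 8 and 12 h. The shift was -22, -107 and -123 bp in those of 48, 96 and 120 h, the last with quartiles of -240.5 and -34.5. It was nearer the TSS in 86.3% of 611 regions at 120 h, and the upstream edge had a median shift of 0 bp. The centre of the overlapping peaks moved by a median of -80 bp, toward the start in 85.4% of those compared.

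These regions were picked by a 0 h centre downstream of the TSS, and the part of that choice in the shift was not tested. Regions picked instead by their 120 h island label showed a median downstream shift of -32 bp between 0 and 120 h, in 354 regions. In promoter-TSS regions of 0 h the shift was -26 bp in 5263 regions, and in all regions within 1000 bp it was -40 bp in 7380. Regions under off-island intronic peaks of the same position range shifted by -76 bp in 295 regions. The size of the shift thus differed with the choice of regions.

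**Figure D2:**
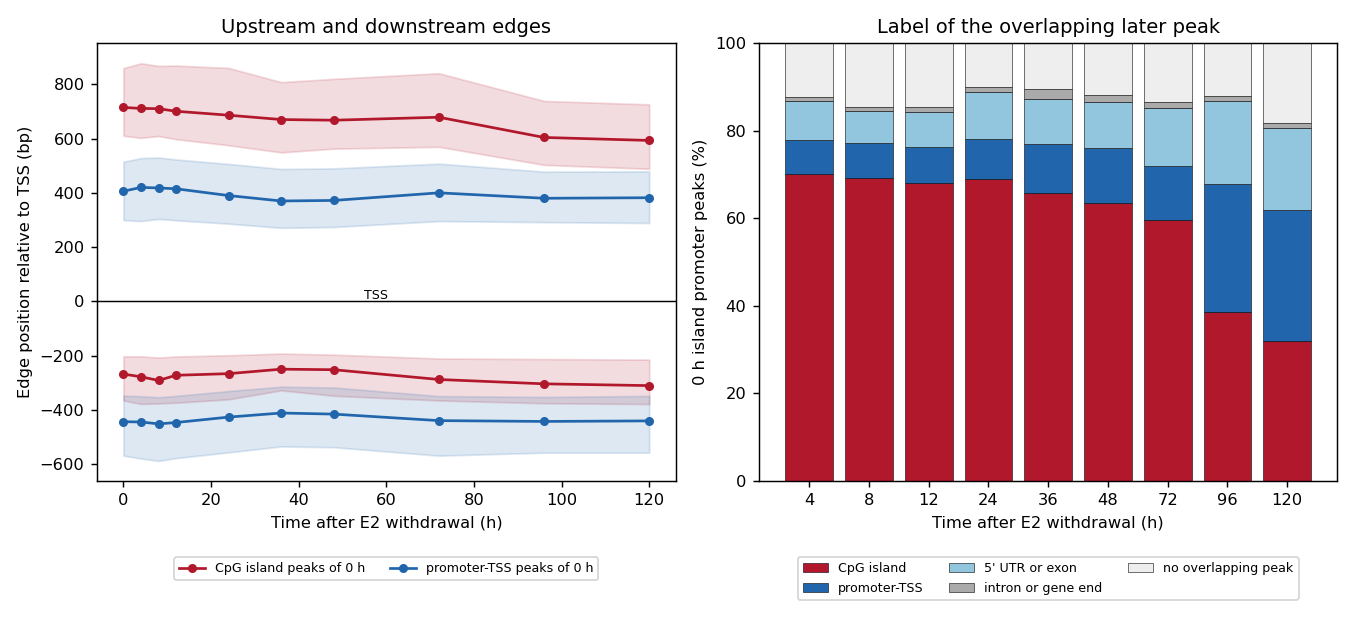
Left, median upstream and downstream edges (bp from the TSS, shading from quartile to quartile) of regions present in all 10 lists, for 394 regions of island promoter peaks and for promoter-TSS peaks of 0 h; right, the label of the best overlapping later peak for the 741 island promoter peaks of 0 h, in percent. The downstream edge of the island regions falls from 714.5 to 593 bp, and the red share of bars falls from 70.0% at 4 h to 32.0% at 120 h.

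The share of island promoter peaks still listed changed little until 96 h. The lists from 4 to 96 h overlapped, in order, 87.9%, 85.6%, 85.4%, 90.0%, 89.5%, 88.1%, 86.5% and 88.0% of the 741. All 0 h peaks were overlapped at 82.8%, 81.9%, 82.2%, 80.9%, 75.9%, 73.8%, 59.9% and 40.0% in the same order. The island values were nearest to those of all peaks up to 12 h and farther above them after that. Other promoter peaks were overlapped at 89.0%, 88.2% and 87.8% in the lists of 24, 36 and 48 h. The island promoter peaks exceeded them by 1.00 (-1.44 to 3.06), 1.25 (-1.24 to 3.36) and 0.37 points (-2.24 to 2.60), with intervals that include 0. Of the 399 island promoter peaks at 120 h, 43 (10.8%, interval 8.10 to 14.2) overlapped nothing at 0 h, beside 25.0% of all 120 h peaks.

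Island distal peaks had shares like those of island promoter peaks up to 48 h and lower ones from 96 h. They were overlapped at 86.9%, 89.5%, 87.1%, 90.9%, 88.7%, 87.1%, 84.2%, 70.3% and 62.0% from 4 to 120 h, the last being 361 of 582 (58.0 to 65.9). Of the 44072 distal peaks off islands, 53.9% were overlapped at 72 h and 22.0% at 120 h. The difference between the distal classes was 5.38 points at 4 h (interval 2.38 to 7.90) and 16.8 points at 48 h (13.8 to 19.3). It was 30.3 points at 72 h (27.1 to 33.1) and 40.1 at 120 h (36.0 to 43.9), and all of these intervals lay above 0. With only intronic and intergenic peaks in the comparison, the labels that island peaks can have, the difference at 120 h was 40.0 points (36.0 to 43.9).

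**Figure D3:**
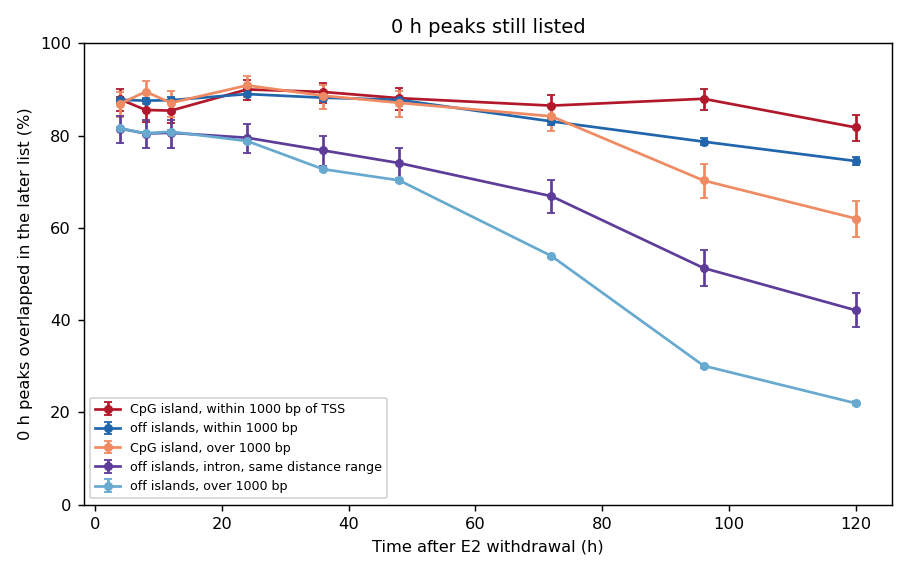
Percent of 0 h peaks overlapped by at least 1 bp in each later list, against hours after E2 withdrawal, with 95% Wilson intervals (counting error only). Island promoter peaks stay above 81% throughout and island distal peaks end at 62.0%, above both intronic off-island peaks and off-island distal peaks.

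Retention at 120 h rose with width in all classes up to 1000 bp, and island peaks were wide. At 0 h the median width was 995 bp for island promoter peaks, 719 bp for island distal peaks, 823 bp for other promoter peaks and 431 bp for other distal peaks. Island promoter peaks were narrowest at 36 h, with a median of 882 bp, and reached 924 bp in the last list. Island distal peaks were narrowest at 48 h, with 622 bp, and reached 749 bp in the last list. Width is the one property in the lists that can stand for the strength of a peak, so retention was also compared within width classes.

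With width matched, distal islands still differed from other distal peaks at 120 h, and the interval for promoters included 0. Island promoter peaks exceeded other promoter peaks by 7.29 points at 120 h (4.23 to 10.0), and by 0.09 points (-2.68 to 2.86) once width was matched. With every list cut to its 23620 widest peaks the unmatched difference was -0.05 points. The matched difference had an interval above 0 at 96 h, with 3.30 points (0.96 to 5.64), and, with any island peak making its whole region a member, at 120 h, with 2.56 points (0.54 to 4.58). Among peaks from 800 bp to under 1000 bp, 86.8% of 190 island promoter peaks and 88.1% of 2343 other promoter peaks were overlapped. Narrow and very wide peaks went opposite ways. From 300 bp to under 450 bp, 60.9% of 23 island promoter peaks (40.8 to 77.8) and 37.1% of 882 others (33.9 to 40.3) were overlapped, and from 1400 bp upward 74.1% of 81 (63.6 to 82.4) and 84.5% of 471 (81.0 to 87.5). Against off-island intronic peaks of the same position range the difference was 39.6 points (34.8 to 44.2), and 17.1 (11.4 to 22.8) with width matched. Island distal peaks stayed 28.8 points above other distal peaks (25.1 to 32.6) after matching. In the class from 600 bp to under 800 bp, 69.5% of 154 island distal peaks (61.8 to 76.2) were overlapped at 120 h, beside 34.9% of 6797 others (33.8 to 36.1).

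**Figure D4:**
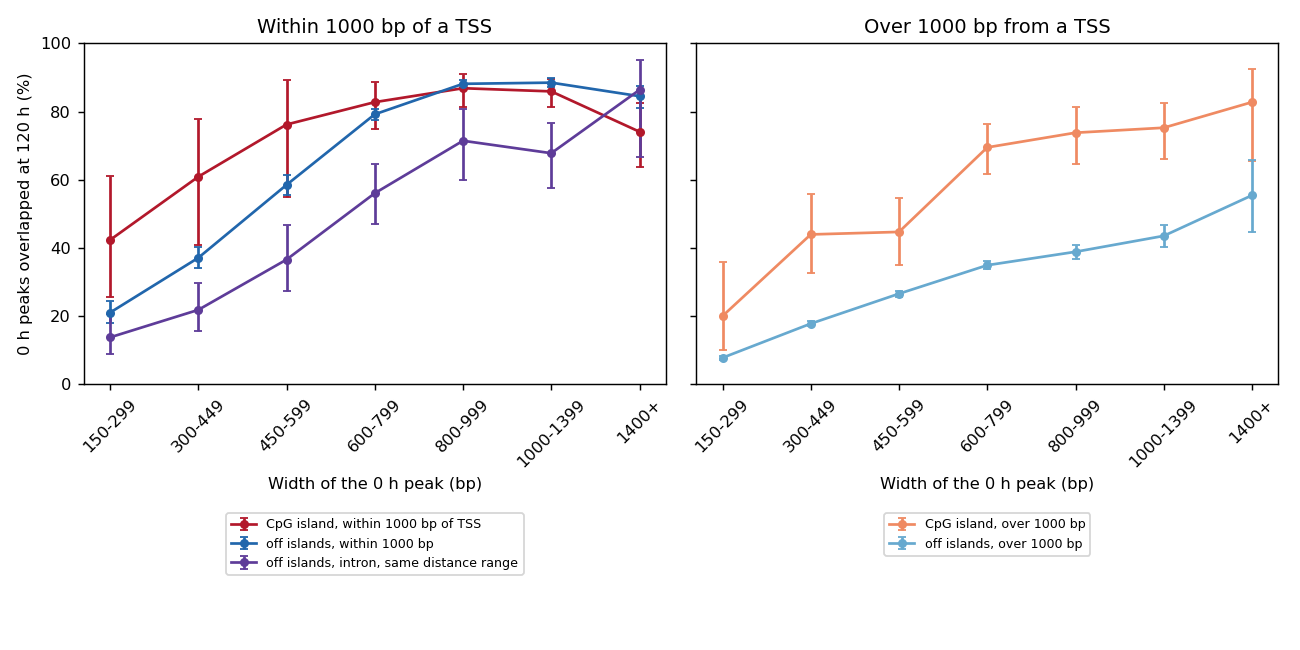
Percent of 0 h peaks overlapped at 120 h by width class of the 0 h peak (bp), with 95% Wilson intervals, for peaks within 1000 bp of a TSS (left) and farther (right). Island distal peaks lie above off-island distal peaks in all 7 width classes, while the curves of island promoter and other promoter peaks run together from 600 bp upward except in the widest class.

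Island distal peaks were not of 1 kind. At 0 h, 398 of the 582 were intergenic and 184 intronic, and 65.3% (60.5 to 69.8) and 54.9% (47.7 to 61.9) of them were overlapped at 120 h. The 79 that overlapped a RefSeq start window were overlapped at 75.9% (65.5 to 84.0), and the 503 that did not at 59.8% (55.5 to 64.0). For off-island intronic and intergenic distal peaks the same shares were 38.7% of 540 and 21.8% of 41012. Islands without a RefSeq start had a higher share than off-island peaks with one, but were also wider, with medians of 699 and 585.5 bp. Islands with a RefSeq start had a median of 871 bp. Width was not matched in these shares. The share did not follow the distance to the deposited TSS. It was 60.0% for the 105 peaks up to 2000 bp away, 66.7% for the 177 from 5000 to 20000 bp and 63.3% for the 166 from 20000 to 100000 bp, with overlapping intervals. A few loci held several members. Rn4.5s had 5 on chromosome 6 at 0 h and 5 on all chromosomes together at 120 h. G530011O06Rik, which the lists place on both X and Y, had 3 on X and 5 on Y at 0 h. At 120 h G530011O06Rik had 6 on all chromosomes together. Reads from near-identical copies can be assigned to the wrong one, so these values are uncertain.

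Few island regions met the rules for lost or gained. Lost means listed at 0, 4 and 8 h and absent at 72, 96 and 120 h, and gained means the reverse. Regions that left or appeared only after 72 h are not counted, and the shares are of all regions of a class. Of the 789 island promoter regions listed at 0 h, 654 (82.9%) were listed at 120 h. For island distal regions it was 332 of 539 (61.6%), beside 32.4% of all regions listed at 0 h. Among 945 island promoter regions, 11 were lost (1.16%, interval 0.65 to 2.07), beside 12.5% of all 88351 regions and 4.10% of other promoter regions, and 4 were gained (0.42%), beside 2.38% of all and 1.36% of other promoter regions. In the distal class 41 of 659 regions were lost (6.22%, 4.62 to 8.33) and 5 gained (0.76%), beside 14.1% and 2.58% of off-island distal regions. Lost over gained was 5.78 for all island regions, and 1.48 with lists cut to equal length. An excess of lost over gained was not particular to islands: over all regions, 11064 were lost and 2100 gained. Regions listed at all 10 times made up 44.9% of the promoter class (424) and 37.2% of the distal class (245), beside 13.8% of all regions. The share was 41.0% for other promoter regions, close to that of island promoters, and 8.89% for off-island distal regions.

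The widest of the 11 lost promoter regions was that of Galnt6, an enzyme that starts mucin-type O-glycosylation (chr15:100728452-100729927, centre 174 bp into the gene). Its widest peak measured 1451 bp at 0 h and 1342 bp at 48 h, and no peak was listed from 72 h on. The region was wide in every list before it disappeared, apart from that of 12 h, where it held 2 peaks and the wider measured 805 bp. Scmh1, a Polycomb group protein (chr4:120404905-120406074, centre at 204 bp), measured 1143, 1145, 1142, 1156, 920 and 1160 bp from 0 to 36 h and was absent from 48 h. Dse, an epimerase of dermatan sulfate synthesis, was listed up to 48 h at 858 to 901 bp. Prrg4, a transmembrane Gla protein, and Slc26a4, the anion exchanger pendrin, ended after 12 h, and Spns2, a sphingosine-1-phosphate exporter, after 24 h. Bex2, Tspan18, a tetraspanin, and Ccdc149 were also lost. These promoters left the lists at different times, from 24 h for Prrg4 to 72 h for Galnt6.

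All 4 gained promoter regions were absent at 0, 4 and 8 h. Atxn7, a subunit of the SAGA coactivator (chr14:14012213-14013614, centre at 422 bp), measured 1402 bp at 12 h and 1251 to 1381 bp in every later list. Nmd3, the adaptor that exports large ribosomal subunits, measured 1287 bp at 12 h and 865 bp at 120 h. Both were widest in the list where they appeared. Dusp3, a dual-specificity phosphatase, measured 550 bp when it appeared at 12 h and 1053 bp at 120 h. Elovl7, a fatty acid elongase, was listed from 36 h at 851 to 1051 bp.

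Among distal islands, the widest lost regions lay nearest Rundc3b, Cd80, Zcchc13, Fgfr3, Mir155hg and Irf2bp1. The region 9795 bp upstream of Mir155hg, the host transcript of the inflammatory microRNA miR-155 (chr16:84702623-84703780), measured 503, 925, 1101, 1075, 500, 562 and 582 bp from 0 to 48 h and was then absent. The region 26072 bp upstream of the receptor kinase gene Fgfr3 (chr5:33695053-33696283) measured 1037, 1200, 1097 and 1133 bp and was absent from 24 h. The region assigned to Cd80, a costimulatory ligand of antigen-presenting cells, was listed up to 36 h. The 5 gained distal regions lay nearest Fbxw7, Tex44, Synb, Mir6418 and Rbp7. The one 1057 bp upstream of Fbxw7, the F-box protein that targets cyclin E and Myc for degradation (chr3:84813884-84815141), measured 1088 bp at 12 h and 1178 bp at 120 h. It lies just outside the distance that defines a promoter here.

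The widest constant distal islands were assigned to Arid1a, Ccr1, Gm7244, Nsd2, Mir5128 and Phf3. The region 60429 bp upstream of Arid1a, a SWI/SNF remodeller subunit (chr4:133812947-133814980), measured 1804 bp at 0 h, between 1599 and 1880 bp later, and 1840 bp at 120 h. The region 22394 bp upstream of Nsd2, a histone H3 lysine 36 methyltransferase (chr5:33819849-33821587), measured 1705 bp at 0 h and 1520 bp at 120 h. The region 43802 bp from Ccr1, a chemokine receptor (chr9:123923983-123925797), went from 1815 to 1239 bp; the RefSeq start of Gm51701 shown above lies in it. Of the 6, Arid1a alone was no narrower at 120 h than at 0 h.

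**Figure D5:**
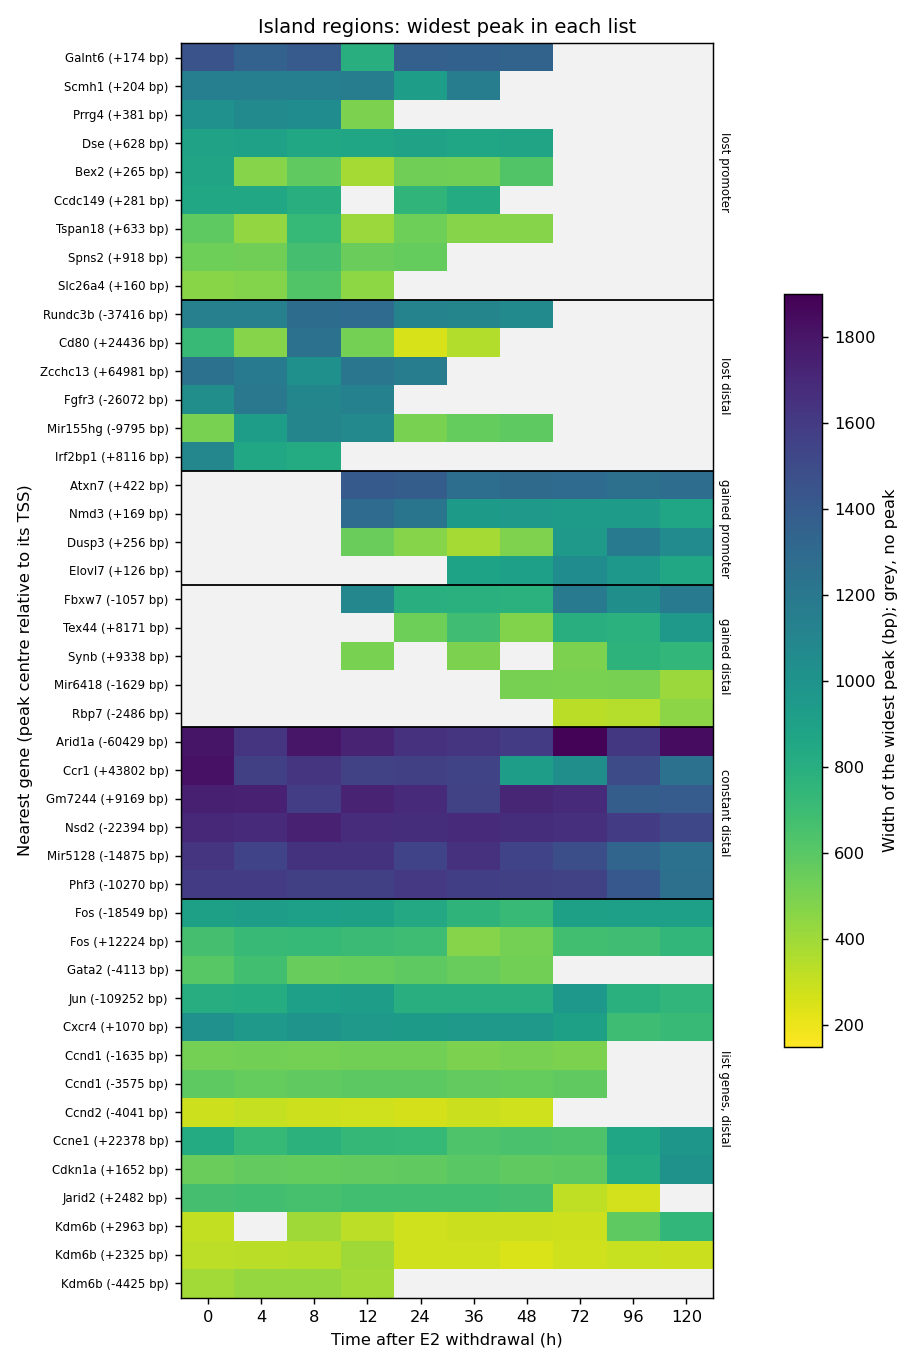
Width in bp of the widest peak of each named island region (rows, with the nearest gene and the distance of the peak centre to its TSS) in each list (columns, hours after E2 withdrawal); grey means no peak. Lost rows are first absent for good between 12 and 72 h, the rows of Atxn7, Nmd3 and Fbxw7 start at 12 h, and the constant distal rows stay above 900 bp.

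Distal islands of the gene lists were partly lost and partly kept. The genes named from the lists for their distal islands were chosen after their values were seen. Among regions assigned to myeloid and progenitor transcription factors, 13 were listed at 0 h and 8 of these at 120 h, a share like the 61.6% (332 of 539) of all island distal regions. The region 4113 bp upstream of Gata2, a stem and progenitor cell factor (chr6:88189440-88190124), measured 605, 677, 556, 561, 587, 554 and 523 bp from 0 to 48 h and was absent from 72 h. Regions near Id1 and Id2, inhibitors of basic helix-loop-helix factors, were last listed at 72 h. A region 51906 bp downstream of the Klf4 start was listed up to 36 h. In contrast, both regions of Fos, of the AP-1 complex, were listed at all 10 times, at 907 and 911 bp and at 668 and 743 bp at 0 and 120 h. Those of Jun, its partner, of Maf and of Meis1, a cofactor of Hoxa9, were listed at all 10 times as well.

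Cell cycle genes were also divided. Of 7 island distal regions at 0 h, 3 were listed at 120 h, beside the 61.6% of all island distal regions. Both regions upstream of Ccnd1, cyclin D1, measured 492 to 522 bp and 561 to 593 bp up to 72 h and were absent at 96 and 120 h. The region assigned to Ccnd2, cyclin D2, was listed up to 48 h, at 260 to 303 bp. The intronic region of Cdkn1a, the inhibitor p21, was listed throughout, measured 550 to 597 bp up to 72 h and 822 bp at 96 h, and was wider still at 120 h. The region 22378 bp from Ccne1, cyclin E1, also remained, with 824 and 975 bp at the ends. The counts are small.

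Neutrophil genes had no island-labelled promoter peak. Of 28 such genes, 0 had an island promoter peak in any list, beside 8.03% of all 19738 genes with a peak, and 2 (7.14%) had an island distal peak, beside 3.64%. The region 1070 bp into Cxcr4, the chemokine receptor for Cxcl12 (chr1:128590689-128591737), was listed at all 10 times and narrowed from 1016 to 712 bp. The region of Prtn3, proteinase 3, was listed at 207 to 252 bp up to 72 h and was absent after that. Of 42 developmental factors, 32 had a peak. Of these, 0 had an island promoter peak in any list, beside 8.03% of all genes, and 4 (12.5%) an island distal peak, beside 3.64%. Counted by regions, 3 had an island distal region. The one upstream of Neurog2, a neuronal factor, was listed from 0 to 72 h and absent at 96 and 120 h. Of 36 imprinted genes, Gnas and Commd1 had an island promoter peak, each in 2 lists and neither at 0 h nor at 120 h. They were 6.90% of the 29 imprinted genes with a peak, near the 8.03% of all genes.

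Of the 7 gene lists, the housekeeping list had the largest number of island promoter regions. Of its 29 genes, 9 had such a region, and all 7 regions listed at 0 h were listed at 120 h, beside 82.9% (654 of 789) of all island promoter regions. Counted by peaks in any list, 35.7% of the 28 genes with a peak had an island promoter peak, beside 8.03% of all genes. Rplp0, a ribosomal stalk protein, kept its width, with 861 bp at 0 h and 855 to 893 bp later. Actb, cytoplasmic actin (chr5:142905520-142907112), measured 602 to 646 bp in every list up to 72 h, then 1559 and 1593 bp in the lists of 96 and 120 h. Gapdh, of glycolysis, measured 744, 1650 and 1666 bp at 0, 96 and 120 h. The widest peak was wider in both late lists than in any earlier one. Actb had 2 promoter peaks in each list up to 72 h and 1 in the last 2 lists, and Gapdh had 2 or 3 up to 72 h, then 2 and 1 in the last lists.

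Genes of the CpG island and DNA methylation machinery, a list that includes Polycomb proteins, also had islands. Of 30 genes in this list, 29 matched, 4 had an island promoter region and 5 an island distal region. Counted by peaks in any list, 31.0% of the 29 had an island promoter peak, beside 8.03% of all genes. An island distal peak was found for 17.2%, beside 3.64%. Kdm2b, a CXXC-domain demethylase that recruits Polycomb to islands, measured 1674, 904, 201 and 1033 bp at 0, 24, 72 and 120 h at its promoter region. Tet3, a 5-methylcytosine dioxygenase, was listed at all 10 times, with 1859, 467 and 1867 bp at 0, 96 and 120 h. Tet1, its relative, was listed at 0 h with 1059 bp and was absent at 36, 48, 96 and 120 h. Rnf2, the Polycomb ubiquitin ligase Ring1b, was listed in 6 lists, 0 and 120 h included. Of the 10 distal regions of this list, 7 were listed at 0 h and 3 of these at 120 h, beside 61.6% of all island distal regions. The intronic region of Jarid2, a Polycomb cofactor, measured 661 to 682 bp up to 48 h and 319 and 273 bp before its absence at 120 h. The island distal regions of Kdm6b, an H3K27 demethylase, differed: one 4425 bp upstream was last listed at 12 h, and both intronic ones were listed at 120 h.

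Some wide island promoters dropped out of single lists. Regions present at 0 and 120 h but absent in at least one of 24, 36 and 48 h made up 11.2% of the promoter class (106 of 945, interval 9.36 to 13.4) and 5.92% of the distal class (39 of 659), beside 2.52% of all regions and 8.89% of other promoter regions. The denominators include regions absent at 0 or 120 h. Of regions present at both, 16.2% of 654 island promoter regions (13.6 to 19.2), 14.8% of 7105 other promoter regions and 11.7% of 332 island distal regions (8.71 to 15.7) were absent mid-course, beside 12.7% of all 17619. Anp32b, an acidic nuclear protein of the Anp32 family (chr4:46450490-46452810), measured 664, 2318, 2321 and 2301 bp up to 12 h, had no peak at 24 h, and measured 707, 874, 2257, 1904 and 1847 bp afterwards. At 48 h the region held 3 separate peaks. Mier3 measured 2144 bp at 0 h, was absent at 4, 8, 24, 36 and 48 h and measured 994 bp at 120 h. Qser1, N4bp2l1, Elmo1, an activator of Rac signalling, and Rai1 were also absent from some middle lists. Members among the widest at 0 h, at Usp9x, Bcor, Rrbp1 and Mier3, were split or absent in other lists; Usp9x had 1 peak of 2387 bp at 0 h, none at 8 h and 3 at 48 h. At 120 h the widest were at Pfn1, Rcc2, Foxn2, Tet3 and Anp32b, and those of Pfn1 and Foxn2 had no peak at 0 h.

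Such gaps show how often single regions drop out of a list while both neighbouring lists hold them. Among island promoter regions listed at both neighbouring times, between 3.92% (at 96 h) and 9.90% (at 12 h) were absent from the list between. For island distal regions the range was 4.12% to 9.45%, and for all regions 6.06% to 10.8%. These rates apply to single regions and may include true closing. They do not give the spread of a share or count between lists, which is unknown. Splitting of island promoter regions peaked at 48 h, when 10.7% of those listed held more than 1 peak, against 5.45% at 0 h and 1.49% at 120 h. This course was not particular to islands. Over all regions the split share started lower, with 1.65% in the 0 h list, was highest in the 36 h list (2.70%), and ended with 0.82% in the last list. Single regions were also split in lists other than that of 48 h. Gtf2i, a general transcription factor (chr5:134313337-134315402), chosen after its values were seen, was listed at 1110, 1956, 2032, 2037, 1890, 915, 1842, 997, 1786 and 1771 bp. Its narrow values at 0, 36 and 72 h all came with 2 peaks in the region.

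Promoter sequence was compared between island promoter peaks overlapped at 120 h (kept) and the others. Windows matched 454 of the 606 peaks kept at 120 h and 80 of the 135 not kept, giving 541 and 89 windows. The median observed over expected CpG ratio was 0.81 in the kept set (quartiles 0.69 and 0.93) and 0.73 in the other (0.57 and 0.88). Island-like composition held for 80.0% and 66.3% of windows. Windows under promoter-TSS peaks of 0 h were close to the kept set, with a median ratio of 0.80 and 74.8% island-like. The ETS core CCGGAA, searched on both strands, was found in 34.2% of kept windows and 21.3% of those not kept. It was found in 32.4% of windows under promoter-TSS peaks and 14.9% of all 32851 windows. Among promoter regions without an island label, it was found in 35.4% of windows of constant regions and 6.69% of those of lost ones. These sets also differed in composition, with 77.5% and 27.6% of windows island-like. In the order kept, not kept, promoter-TSS and all windows, the GC box GGGCGG was found in 70.1%, 73.0%, 67.6% and 35.7%. CCAAT was found in 31.8%, 29.2%, 41.0% and 37.4%. None of the 3 motifs contains another. The median G+C was 61.0% in the kept set and 62.0% in the other. No test was made of these shares. Just inside and outside the distance that divides promoter from distal members at 0 h were Spns2 at 997 bp and Gnb1 at 1002 bp, and Eif4a1 at 991 bp and Kat6b at 1005 bp.

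Promoters of neutrophil genes, none of which carried an island label in the lists, went both ways. Of the 28 genes, 13 had a promoter peak at 0 h and 15 at 120 h, 8 of them in both lists. Of all 19738 genes with a peak, 9525 had a promoter peak at 0 h and 8596 at 120 h. How many of all genes had one in both lists was not counted. Counted by regions instead, 7105 of 9466 other promoter regions listed at 0 h (75.1%) were listed at 120 h. The promoter peaks of Mpo and Ctsg, both of primary granules, and of Lyz2, lysozyme, were listed from 0 to 72 h and not at 96 or 120 h. Ncf1 and Cyba, of the phagocyte oxidase, were also listed at 0 h and not at 120 h. The 7 genes listed at 120 h and not at 0 h were Ltf, Ngp, Lcn2, Mmp9, S100a8, S100a9 and Cxcr2. These genes were chosen after their values were seen.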

How the data were processed

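The members and gene lists were chosen with earlier results of these data known. ATAC-seq was measured in 20 samples, 2 per time point, and the authors deposited 1 annotated peak list per time. Per the file headers, HOMER's annotatePeaks.pl was run against mm10, and coordinates are given as mm10. The submitters' processing notes name BWA, MACS2 2.0, STAR 2.5 and mm9, with no role given. Peak calling, pooling of replicates and any shift of reads for Tn5 are not given in the sources used here. The deposited score is 0 for every peak and was not used, and positions, distances to the TSS and annotations are used as deposited.

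A 0 h peak was kept when at least 1 bp overlapped a later peak. Peaks of all lists were merged by chained overlap into 88351 union regions, of which 1604 were island regions by their widest peak. Width classes entered a matched difference with at least 20 peaks of each kind. Named genes were the widest lost, gained, constant distal and mid-course missing regions, the widest peaks at 0 and 120 h, those nearest the distance split, and list members with the widest island promoter peak. Others were chosen after their values were seen. The sorting of regions was tested on simulated data: 100% of 6000 were sorted correctly, which checks the calculation only. Motifs were searched in RefSeq windows (GRCm38.p6). The tools were pandas 2.3.3 and numpy 2.4.6 for the tables and matplotlib 3.10.9 for plots, under Python 3.11.15. 7 alternatives were set at the start and a comparison with peaks in the same position range was added after seeing the data. Some genes that this rule names are not reported here.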

Additional observations from a re-analysis of the deposited data

How the results depend on the processing

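Of 94 alternative values, 74 stayed within the 95% interval of the reported value or, for ratios and peaks per region, within 1.5 times of it. Another 16 moved beyond that and 4 reversed sign, and the cause was not tested. Some of the 74 could not change, because the setting does not enter the value. For example, the island share of the 120 h list does not depend on the promoter distance. The ratio of island distal peaks at 120 h to 0 h, 0.68, was 0.92 with lists of equal length. The width-matched difference at 120 h between island promoter and other promoter peaks, 0.09 points, became -1.35 with a promoter distance of 500 bp, -0.41 when 50% of the narrower peak had to overlap, -2.09 with lists cut to the 23620 widest peaks, 3.30 (0.96 to 5.64) at 96 h and 17.1 against intronic peaks of the same position range. The unmatched difference, 7.29 points, became -0.053 with lists of equal length, 14.1 with 2500 bp and 39.6 against intronic peaks. Island promoter peaks kept were 85.5% with 500 bp, 78.6% with 2500 bp and 88.0% at 96 h. Island distal peaks kept were 70.5% with equal lists and 70.3% at 96 h. Lost over gained island regions, 5.78, became 1.48 with equal lists and 3.73 at 96 h. Regions in all lists made up 49.2% with 500 bp and 48.7% without the 120 h list. The island share of the last list was 3.08% at 96 h. When any island peak made its whole region a member, that share was 7.60% and the ratio of island promoter peaks at 120 h to 0 h was 0.92, in place of 0.54.

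No paired analysis was possible because each time point has 1 list for both replicates, and leaving out a replicate could not be done for the same reason. The lists carry no depth, so fewer peaks in the late lists and lower signal or depth cannot be told apart.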
